A study of Mus musculus with 51 samples.

Results

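The genes described here encode the inducible part of the proteasome: the immunoproteasome catalytic subunits Psmb8 (LMP7, also β5i), Psmb9 (LMP2, β1i) and Psmb10 (MECL-1, β2i), and the PA28 regulator subunits Psme1 (PA28α) and Psme2 (PA28β). They were chosen by name, as the 5 genes of that list among the 40077 genes of the deposited tables, and each was read in all 51 bulk RNA-seq libraries, 35 from tumors and 16 from cultured cells. The study asked what UBA1, the enzyme that activates ubiquitin, does to interferon signaling and immune escape of tumors. Myc-CaP is a mouse prostate cancer line grown subcutaneously in male FVB mice, and B16-BL6 is a mouse melanoma line grown in C57BL/6 mice, hosts with an intact immune system, aged 6 to 8 weeks and injected on both flanks.

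Tumors with Uba1 depletion (sgUba1) were compared with control sgRNA tumors in B16-BL6 (4 against 3) and in Myc-CaP (7 against 3). Uba1-depleted lines were made by transfecting a CRISPR plasmid and expanding sublines from single sorted cells, and how many sublines or sgRNAs lie behind the libraries labelled sgUba1 is not given in the labels. Myc-CaP tumors with Uba1 overexpression (OE, a lentiviral CMV promoter) were compared with empty vector tumors (4 against 3), and tumors of mice given the UBA1 inhibitor TAK-243 intravenously with vehicle tumors (5 against 6). Cultured Myc-CaP cells formed 2 experiments with 2 libraries in each group: control sgRNA and sgUba1 cells, and untreated and TAK-243 cells (50 nM), each with and without interferon-γ (IFN-γ). The control sgRNA cells without IFN-γ received PBS.

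The proteasome degrades proteins that carry ubiquitin chains and supplies peptides to MHC class I. Its 20S core carries catalytic sites on Psmb5, Psmb6 and Psmb7, and in cells exposed to IFN-γ, as in immune cells, newly made cores take up Psmb8, Psmb9 and Psmb10 in their place. PA28, a ring of Psme1 and Psme2, caps the core without needing ubiquitin and alters the peptides released. IFN-γ signals through the kinases JAK1 and JAK2 to DNA elements called gamma-activated sites (GAS), and also through IRF1, which binds interferon response elements.

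On GRCm38, Psmb8 (ENSMUSG00000024338.15) lies at chr17:34197721-34201454 on the plus strand and Psmb9 (ENSMUSG00000096727.3) at chr17:34181987-34187764 on the minus strand, on either side of the peptide transporter gene Tap1 in the MHC region. Psmb9 shares 212 bases with Tap1 on the opposite strand, and whether the counting used strand is not given in the sources used here, so reads from the shared part cannot be told apart. Psmb10 (ENSMUSG00000031897.9) lies at chr8:105935735-105938444, minus strand. Psme1 (ENSMUSG00000022216.17, chr14:55578123-55581529, plus strand) and Psme2 (ENSMUSG00000079197.10, chr14:55587441-55591113, minus strand) are neighbors. Psme2 has a near copy, Psme2b on chromosome 11, which stayed at or below 2.82 CPM (counts scaled to library size) in every library, and adding its counts to those of Psme2 changed no call.

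RefSeq promoter sequences of GRCm38.p6 (250 bases before the start site and 50 after) were found for 5 of 5 genes. They were searched on both strands for GAAANNGAAA, an interferon response element core, and TTCNNNGAA, a GAS core, letters that do not overlap in the matches found. The first is in 3.44% and the second in 8.3% of 32851 promoters of the same length. The promoters of the genes with the largest IFN-γ differences, Psmb8 and Psmb9, and of Psme1, the other with a match, are shown 5′ to 3′ with the match in capitals. Psmb8 (chr17:34197945-34198244, plus strand) holds a GAS match starting at position -97 from the start site, and Psme1 (chr14:55578244-55578543, plus strand) holds the interferon response element on its reverse strand at position 10.
Psmb8: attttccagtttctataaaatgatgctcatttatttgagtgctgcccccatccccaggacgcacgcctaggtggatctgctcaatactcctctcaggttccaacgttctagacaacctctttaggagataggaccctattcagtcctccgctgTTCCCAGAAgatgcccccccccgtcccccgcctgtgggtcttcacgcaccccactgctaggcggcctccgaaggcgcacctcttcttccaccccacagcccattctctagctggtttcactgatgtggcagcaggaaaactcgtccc
Psme1: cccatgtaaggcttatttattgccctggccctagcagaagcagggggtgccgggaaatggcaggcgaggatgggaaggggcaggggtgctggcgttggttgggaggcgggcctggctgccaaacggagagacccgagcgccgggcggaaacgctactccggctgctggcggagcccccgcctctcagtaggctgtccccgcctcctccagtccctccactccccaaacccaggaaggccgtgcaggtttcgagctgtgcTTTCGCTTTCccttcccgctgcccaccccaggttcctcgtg
Psmb9: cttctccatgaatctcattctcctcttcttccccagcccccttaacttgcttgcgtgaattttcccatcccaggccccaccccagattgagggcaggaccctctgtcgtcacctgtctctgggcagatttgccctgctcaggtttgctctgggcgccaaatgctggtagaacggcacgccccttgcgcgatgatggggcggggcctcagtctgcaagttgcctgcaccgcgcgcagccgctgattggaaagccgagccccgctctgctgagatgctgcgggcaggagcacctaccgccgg
The Psmb9 window (chr17:34187281-34187580, minus strand), like those of Psmb10 and Psme2, holds neither set of letters. The windows of Psmb8, Psmb9 and Psme1 do not reach the 5′ ends of the gene positions given above, so matches near those ends would be missed. These matches are descriptions of sequence, and no binding was measured.

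Total counts ranged from 8652097 to 38032395 per library, and no pair of replicates agreed within sampling noise. Uba1 in cells was 617 and 607 CPM with the control sgRNA and 341 and 327 CPM with sgUba1; with IFN-γ the values were 670 and 685 against 310 and 320 CPM. Untreated cells had 529 and 518 CPM and TAK-243 cells 661 and 626 CPM, and with IFN-γ 622 and 640 against 720 and 705 CPM. B16-BL6 control tumors had 389, 434 and 393 CPM, above the 197, 210, 214 and 235 CPM of sgUba1 tumors, and OE tumors (718, 623, 698 and 744 CPM) lay above empty vector tumors (301, 272 and 283 CPM). Vehicle tumors had 353, 341, 342, 327, 284 and 297 CPM and TAK-243 tumors 315, 304, 321, 260 and 331 CPM. Myc-CaP control sgRNA tumors had 294, 283 and 313 CPM, but tumors labelled sgUba1 had 183, 191, 196, 343, 329, 341 and 354 CPM, so that 4 of the 7 lay above every control and 3 below; whether these 4 came from another subline or sgRNA is not given in the sources used here. They are called by their label, and results are given also without those 4, an alternative chosen after the data were seen. The 5 epithelial markers summed to at least 1266 CPM in every Myc-CaP library and at most 2.97 CPM in B16-BL6 tumors, but Epcam among them was at 0 in 4 of the 8 groups of cells. Pigment cell markers summed to at least 11815 CPM in B16-BL6 tumors and at most 29.6 CPM elsewhere. The labels call the cultured cells prostate tumor, but the leukocyte marker Ptprc was at most 0.157 CPM in them.

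Without IFN-γ, Psmb8 and Psmb9 were close to absent from Myc-CaP cells, while Psmb10 was at 4.44 to 12.3 CPM and Psme1 and Psme2 were at 24.8 CPM or more. Psmb9 was at 0 counts in 4 of the 8 unstimulated libraries, and Psmb8 in 1 of 8. Per length, on the TPM scale (transcript abundance scaled for gene length), the medians of the unstimulated libraries were 0.719 for Psmb8, 0.204 for Psmb9, 12.9 for Psmb10, 40.8 for Psme1 and 70.6 for Psme2. The catalytic subunits that the first 3 replace stood at 108 TPM for Psmb5, 138 TPM for Psmb6 and 247 TPM for Psmb7. In IFN-γ libraries the medians were 9.59, 7.22, 28.6, 70.6 and 140 TPM for Psmb8, Psmb9, Psmb10, Psme1 and Psme2.

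**Figure D1:**
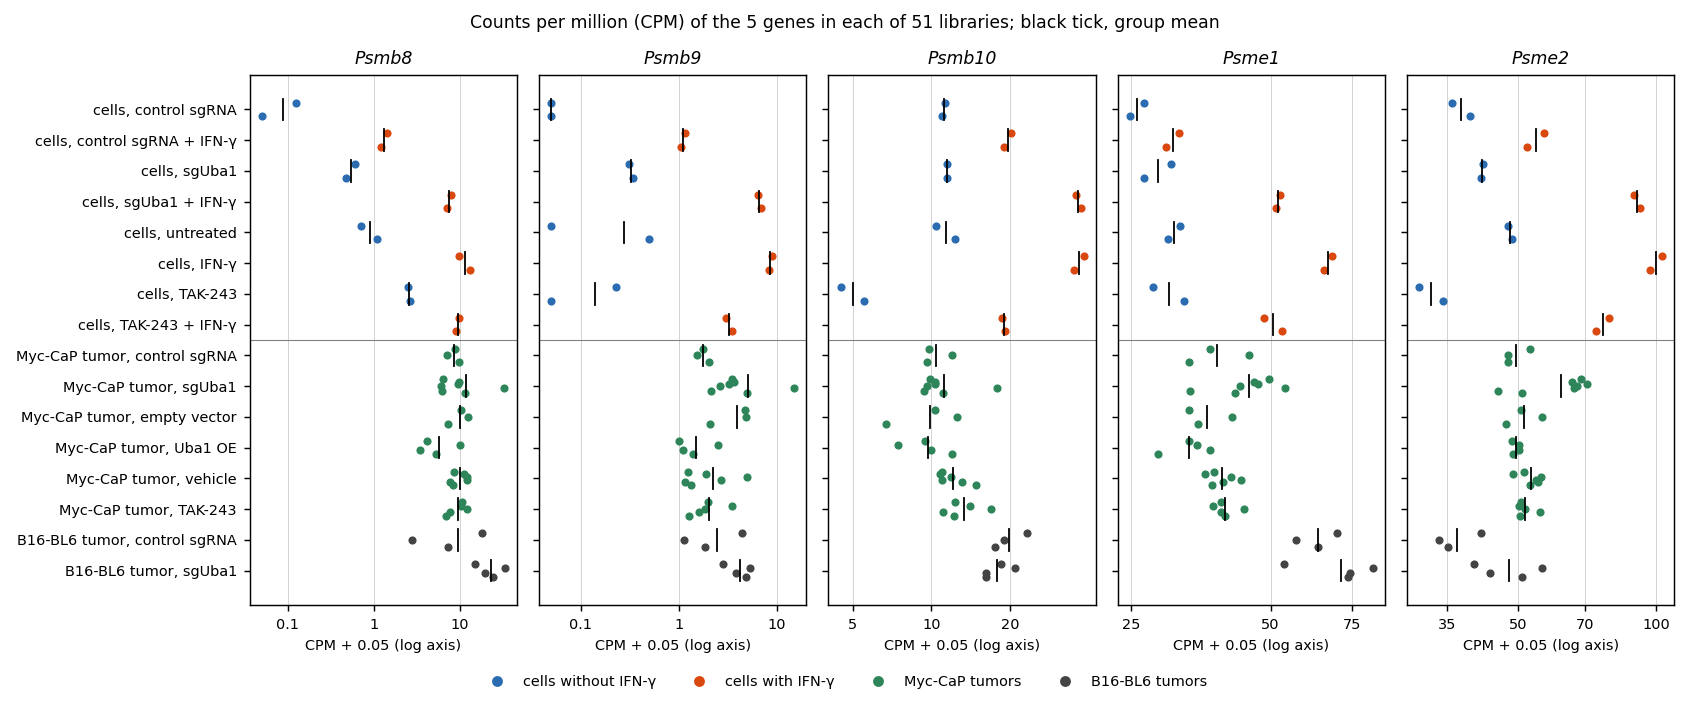
Level of each of the 5 genes in all 51 libraries, as CPM plus 0.05 on a log axis; each point is 1 library, rows are groups and black ticks are group means. Psmb8 and Psmb9 span the widest range, from 0 in control sgRNA cells to 33.6 and 15.1 CPM in tumors, while Psme1 and Psme2 stay within 24.8 to 83.0 and 30.4 to 103 CPM.

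IFN-γ treatment went with higher levels of the members in untreated cells. There Psmb8, the β5i subunit, was 1.05 and 0.653 CPM without and 13.2 and 9.83 CPM with IFN-γ. Psmb9, the β1i subunit, was 0.448 and 0 CPM without and 8.39 and 8.81 CPM with IFN-γ. Psmb10, the β2i subunit, was 12.3 and 10.4 CPM without and 35.1 and 38.3 CPM with IFN-γ. Both stimulated libraries lay above both unstimulated ones for each of the 3 genes. Psme1 went from 30.0 and 31.9 to 65.1 and 67.9 CPM, and Psme2 from 48.6 and 47.4 to 97.2 and 103 CPM, again without overlap. Groups of 2 libraries separate easily. The share of all genes that did so was not counted, here or in the cell comparisons below. Psmb9 passed the filter on low counts only through IFN-γ libraries and had to differ. Psmb8 passed it through TAK-243 and IFN-γ libraries, not through untreated cells, so calls are counted over the other 3. All 3 rose in untreated cells (edgeR quasi-likelihood test, Benjamini-Hochberg adjusted p under 0.05), where 19.6% of all genes tested rose. The log2 fold changes were 3.77 ± 0.26 for Psmb8 (SE), 1.73 ± 0.11 for Psmb10, 1.13 ± 0.08 for Psme1 and 1.09 ± 0.06 for Psme2, with adjusted p of at most 5.7e-12 in edgeR. The Psmb9 value was 5.25 ± 0.45, which rests on 6 counts in 1 unstimulated library. It ran from 4.27 without untreated replicate 2 to 9.82 without untreated replicate 1, when no unstimulated count was left. The labels do not say that libraries of a group were separate cultures, so p-values measure the spread between these libraries, which may be technical.

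In control sgRNA cells, IFN-γ went with higher Psmb8, Psmb9, Psmb10 and Psme2. Psmb8 had 0 and 2 counts without IFN-γ (0 and 0.0754 CPM) and 1.17 and 1.38 CPM with it, a ratio of 32.1 with a 95% counting interval of 8.57 to 270. Psmb9 had 0 counts in both unstimulated libraries and 1.02 and 1.10 CPM in the stimulated ones, at least 8.77-fold higher against a floor of 3 counts per library. These intervals and floors cover counting error only. Psmb10 was 10.9 and 11.3 CPM without and 18.96 and 20.2 CPM with IFN-γ. Psme2 was 39.2 and 35.9 CPM without and 52.1 and 57.0 CPM with IFN-γ. The stimulated libraries lay above the unstimulated ones for both genes, and also for Psme1 (24.8 and 26.6 against 29.7 and 31.7 CPM). Psmb8 had an adjusted p of 0.0016 in edgeR. It passed the filter through sgUba1 and IFN-γ libraries, not through control sgRNA cells without IFN-γ, and is not counted, nor is Psmb9. Of the other 3 members 2 rose, where 3.03% of all genes tested rose. These were Psmb10 (log2 fold change 0.83 ± 0.08, SE, adjusted p = 0.00047 in edgeR) and Psme2 (0.56 ± 0.06, adjusted p = 0.0016). Psme1 missed the threshold at 0.27 ± 0.08 (95% interval 0.10 to 0.45, adjusted p = 0.0788 in edgeR), and passed it without control sgRNA replicate 2 (adjusted p = 0.0328 in edgeR). Fitted on these 4 libraries alone, Psmb8 (adjusted p = 0.0502 in edgeR) and Psme2 (0.0743) were no longer called, and on log2(TPM + 1) or log2(TPM + 0.1) without TMM Psme2 was not (adjusted p = 0.0656 or 0.0505 in limma).

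A comparison added after the data were seen put the IFN-γ effect of untreated cells beside that of control sgRNA cells in 1 fit of all 16 cell libraries. It was larger in untreated cells by 0.91 for Psmb10, 0.88 for Psme1 and 0.55 for Psme2 on the log2 scale (adjusted p = 0.00083, 0.00027 and 0.0023 in edgeR), 3 members where 1.88% of all genes tested were higher. Psmb8 (-1.03, 95% interval -2.73 to 0.67, adjusted p = 0.564 in edgeR) and Psmb9 (-2.22, -5.62 to 1.19, adjusted p = 0.522) had the opposite sign and did not pass, both being at 0 to 2 counts in control sgRNA cells without IFN-γ. The control sgRNA cells are another line and belong to another experiment, so line and experiment cannot be told apart.

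**Figure D2:**
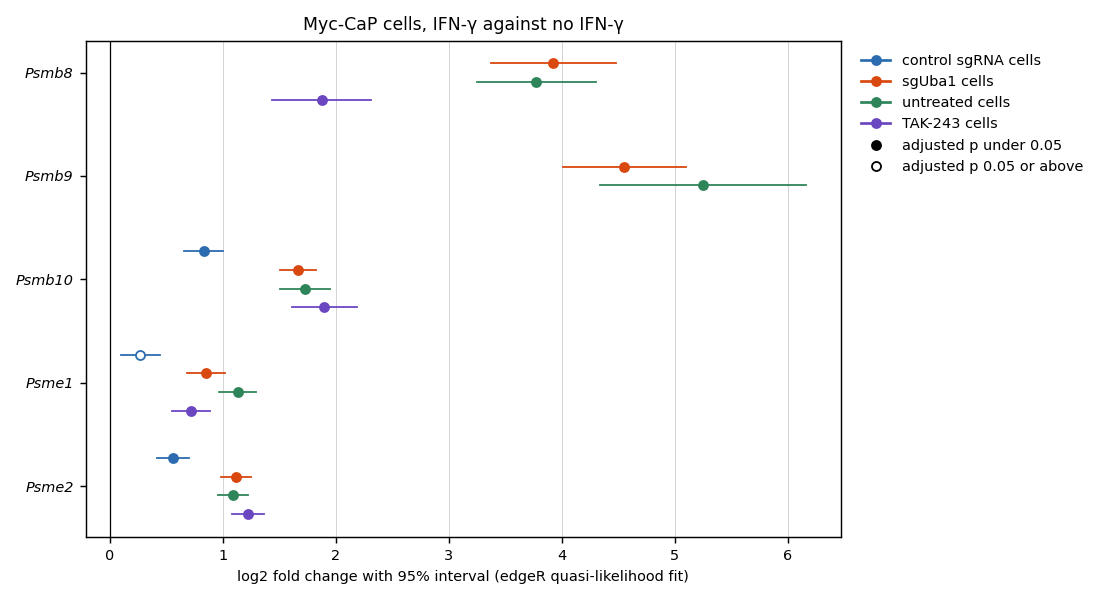
Log2 fold change of each gene with IFN-γ against no IFN-γ in the 4 kinds of Myc-CaP cell, with 95% intervals from the edgeR fit; filled points passed adjusted p under 0.05. Psmb8 and Psmb9 in control sgRNA cells and Psmb9 in TAK-243 cells are left out because the unstimulated libraries held at most 2 counts. The Psme1 point of control sgRNA cells, at 0.27, is the only open one. Filled points of Psmb9, and of Psmb8 in untreated cells, are not counted as calls. These genes did not pass the filter on low counts through the unstimulated libraries compared.

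The rest of the proteasome had smaller median differences. Among the constitutive catalytic subunits Psmb5, Psmb6 and Psmb7, 0 of 3 rose with IFN-γ in control sgRNA cells and 2 of 3 in untreated cells, where Psmb5 rose by 0.45 and Psmb6 by 0.24 on the log2 scale. Of the 11 other 20S core subunits, 0 rose in control sgRNA and 8 in untreated cells, and of the 18 subunits of the 19S regulator, which recognizes ubiquitin chains, 2 and 9 rose and 0 and 1 fell. Of all genes tested, 3.03% and 19.6% rose. The medians of these lists lay between 0.13 and 0.24, and those of all genes tested at 0.04, in both kinds of cell. Those of the 5 members were 0.83 and 1.73, but include Psmb8 and Psmb9, left out of the calls because of the filter. Psmb10, Psme1 and Psme2 were at 0.83, 0.27 and 0.56 in control sgRNA cells and at 1.73, 1.13 and 1.09 in untreated cells. The MHC class I processing list, which includes the transporter genes Tap1 and Tap2, had 4 of 9 tested genes higher in control sgRNA cells and 8 of 9 in untreated cells; H2-K1 and H2-D1 were not analysed here. Tap1 rose by 2.11 in control sgRNA cells and 4.04 in untreated cells on the log2 scale.

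Depletion of Uba1 in cells went with higher levels of all members than in control sgRNA cells once IFN-γ was present. With IFN-γ, Psmb8 was 7.05 and 7.97 CPM in sgUba1 cells against 1.17 and 1.38 CPM in control sgRNA cells. Psmb9 was 6.83 and 6.41 against 1.02 and 1.10 CPM, and Psmb10 was 37.3 and 35.7 against 18.96 and 20.2 CPM. Psme1 was 51.4 and 52.3 against 29.7 and 31.7 CPM, and Psme2 was 92.1 and 89.6 against 52.1 and 57.0 CPM. No groups overlapped. Of the 4 members that passed the filter without IFN-γ libraries, 4 were higher in edgeR, where 17% of all genes tested were higher and 22.4% lower. The log2 fold changes were 2.53 ± 0.22 (SE) for Psmb8, 0.88 ± 0.07 for Psmb10, 0.73 ± 0.07 for Psme1 and 0.71 ± 0.06 for Psme2 (adjusted p from 3.8e-06 to 2.1e-05 in edgeR), and 2.62 ± 0.20 for Psmb9. Untreated cells with IFN-γ, of the other experiment, had means above those of sgUba1 cells for every member, with overlapping ranges for Psmb10. The means were 11.5 against 7.51 CPM for Psmb8, 8.60 against 6.62 for Psmb9 and 36.7 against 36.5 for Psmb10. For Psme1 and Psme2 they were 66.5 against 51.8 and 100.2 against 90.8 CPM. How many sublines lie behind each label is not given, so subline and Uba1 level cannot be told apart.

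Without IFN-γ the difference was seen in the catalytic subunits with the lowest counts. Psmb8 was 0.423 and 0.554 CPM in sgUba1 cells (30 counts in all) against 2 counts in the control libraries, a ratio of 12.2 with a counting interval of 3.10 to 105 and an adjusted p of 0.0028 in edgeR. Psmb9 was 0.293 and 0.261 CPM (17 counts in all) against 0 counts, at least 2.30-fold higher. Psmb10 was 11.5 and 11.5 CPM against 10.9 and 11.3 CPM, and Psme1 and Psme2 were at 26.6 and 30.5 and at 41.4 and 41.9 CPM. Psmb8 passed the filter through sgUba1 and IFN-γ libraries, not through control sgRNA cells. Of the other 3 members 0 were called, where 16.2% of all genes tested were higher and 13.6% lower. The log2 fold changes of the others were 0.05 for Psmb10 (95% interval -0.13 to 0.23), 0.15 for Psme1 (-0.02 to 0.32) and 0.15 for Psme2 (0.01 to 0.30), with adjusted p of 0.721, 0.189 and 0.0992 in edgeR. Without control sgRNA replicate 1, Psme2 passed (adjusted p = 0.0213 in edgeR).

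The IFN-γ effect of Psmb10, Psme1 and Psme2 was larger in sgUba1 than in control sgRNA cells. Within sgUba1 cells it was 3.92 ± 0.25 for Psmb8 (SE), 1.66 ± 0.07 for Psmb10, 0.85 ± 0.08 for Psme1 and 1.12 ± 0.06 for Psme2 on the log2 scale, so that all 4 rose in edgeR, where 1.20% of all genes tested rose. The interaction was 0.83 ± 0.11 for Psmb10, 0.58 ± 0.11 for Psme1 and 0.56 ± 0.09 for Psme2 (adjusted p = 0.0072, 0.0212 and 0.0158 in edgeR), 3 members where 0.663% of all genes tested were higher. The values of Psmb8 (-0.95, 95% interval -2.75 to 0.85, adjusted p = 0.551 in edgeR) and Psmb9 (-3.41, -6.39 to -0.43, adjusted p = 0.211) had the opposite sign and did not pass, with unstimulated controls at 0 to 2 counts. That of Psmb8 ran from -4.33 without control sgRNA replicate 2 to -0.11 without replicate 1, and on log2(TPM + 1) that of Psmb9 turned to 1.28 and passed (adjusted p = 0.0447 in limma). On the TPM scales 0 of the 3 passed. The calls were not all kept when 1 library was left out, but such a fit leaves a group with 1 library. Only its effect sizes are given here. They stayed between 0.78 and 0.92 for Psmb10, 0.52 and 0.74 for Psme1 and 0.49 and 0.64 for Psme2. In untreated cells, of the other experiment and without Uba1 depletion, the IFN-γ effects of these genes were 1.73, 1.13 and 1.09.

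Beside the members, 0 of the 3 constitutive catalytic subunits were higher with sgUba1 in IFN-γ cells and Psmb7 was lower by a log2 value of -0.24. Of the 11 other 20S subunits 5 were higher and 2 lower, and of 18 subunits of the 19S regulator 2 were higher and 7 lower. In the MHC class I processing list 6 of 9 were higher and 3 lower, with Tap1 at 1.96 and Tap2 at 1.05. In the IFN-γ signaling list 7 of 10 were higher and 0 lower, with Irf1, the interferon-induced transcription factor, at 0.79 and Nlrc5, the transactivator of MHC class I genes, at 3.03 on the log2 scale. The list medians were -0.05, 0.15, -0.09, 0.72 and 0.43, against 0.88 for the 5 members, Psmb9 included, and 0.01 for all genes tested.

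TAK-243 gave another pattern from depletion of Uba1 in cells. Without IFN-γ, Psmb8 was 2.59 and 2.49 CPM with TAK-243 against 1.05 and 0.653 CPM untreated. Psmb10 was 5.46 and 4.44 against 12.3 and 10.4 CPM, and Psme2 was 34.2 and 30.4 against 48.6 and 47.4 CPM. Psmb8 was higher and Psmb10 and Psme2 were lower in both TAK-243 libraries than in both untreated ones. Psme1 overlapped, at 32.5 and 27.8 against 30.0 and 31.9 CPM, and Psmb9 had 0 and 2 counts with TAK-243. Psmb8 rose (log2 fold change 1.65 ± 0.34, SE, adjusted p = 9.3e-05 in edgeR), and Psmb10 (-1.10 ± 0.15) and Psme2 (-0.49 ± 0.07) fell, with adjusted p of 2.4e-07 and 1.1e-06 in edgeR. Psmb8 passed the filter through TAK-243 and IFN-γ libraries, not through untreated cells. Of the other 3 members 2 were lower, where 32.3% of all genes tested were higher and 34.0% lower. Psme1 differed by 0.05 (95% interval -0.14 to 0.23, adjusted p = 0.675 in edgeR) and Psmb9, at 6 and 0 counts untreated, did not pass (adjusted p = 0.326).

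With IFN-γ, Psmb9, Psmb10, Psme1 and Psme2 were lower in TAK-243 cells. Psmb9 was 3.46 and 3.02 CPM against 8.39 and 8.81 CPM in IFN-γ cells without TAK-243. Psmb10 was 19.05 and 18.7 against 35.1 and 38.3 CPM, and Psme1 was 52.8 and 48.3 against 65.1 and 67.9 CPM. Psme2 was 74.0 and 79.0 against 97.2 and 103 CPM. None of these groups overlapped, and the share of all genes without overlap was not counted. Psmb8 was 9.05 and 9.83 against 13.2 and 9.83 CPM, and here the groups overlapped, the higher TAK-243 library reaching the lower IFN-γ library. Of the 4 members that passed the filter without IFN-γ libraries, 3 fell, Psmb10 (log2 fold change -0.93 ± 0.10, SE), Psme1 (-0.37 ± 0.08) and Psme2 (-0.36 ± 0.06), with adjusted p of at most 8.1e-05 in edgeR, where 36.2% of all genes tested were lower and 32.0% higher. The Psmb9 value was -1.38 ± 0.28. On the TPM scales, Psme1 (adjusted p = 0.0737 or 0.0753 in limma) and Psmb9 (0.115 or 0.584) were no longer called. Psmb8 differed by -0.25 (95% interval -0.59 to 0.09, adjusted p = 0.188 in edgeR), and fell (-0.46, adjusted p = 0.0432 in edgeR) without IFN-γ replicate 2.

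TAK-243 cells still responded to IFN-γ. The IFN-γ effect was 1.88 ± 0.22 for Psmb8 (SE), 1.90 ± 0.14 for Psmb10, 0.72 ± 0.08 for Psme1 and 1.22 ± 0.07 for Psme2 on the log2 scale, all 4 called in edgeR, where 5.76% of all genes tested rose. Psmb9 went from 2 to 87 counts, a ratio of 41.8 with a counting interval of 11.2 to 351. On log2(TPM + 1) Psmb9 (adjusted p = 0.0587 in limma) and on log2(TPM + 0.1) Psmb8 (0.0790) and Psmb9 (0.163) were not called. The interaction of IFN-γ and TAK-243 was -1.90 ± 0.38 for Psmb8 (adjusted p = 0.0041 in edgeR), where 2.01% of all genes tested were lower. Psmb8 did not pass the filter through untreated cells (mean 0.850 CPM), so this value is not counted as a call. With IFN-γ the groups overlapped, with means of 9.44 CPM with and 11.5 CPM without TAK-243. The interaction was -0.41 for Psme1 (95% interval -0.65 to -0.17, adjusted p = 0.0546 in edgeR). For Psmb10 and Psme2 it was 0.17 and 0.13 (adjusted p = 0.743 and 0.577 in edgeR). The Psmb8 interaction missed the threshold without untreated replicate 2 (-1.60, adjusted p = 0.0543 in edgeR) and on the TPM scales (adjusted p = 0.148 or 0.158 in limma), and without TAK-243 replicate 2 that of Psme1 passed it (-0.47, adjusted p = 0.0419 in edgeR).

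**Figure D3:**
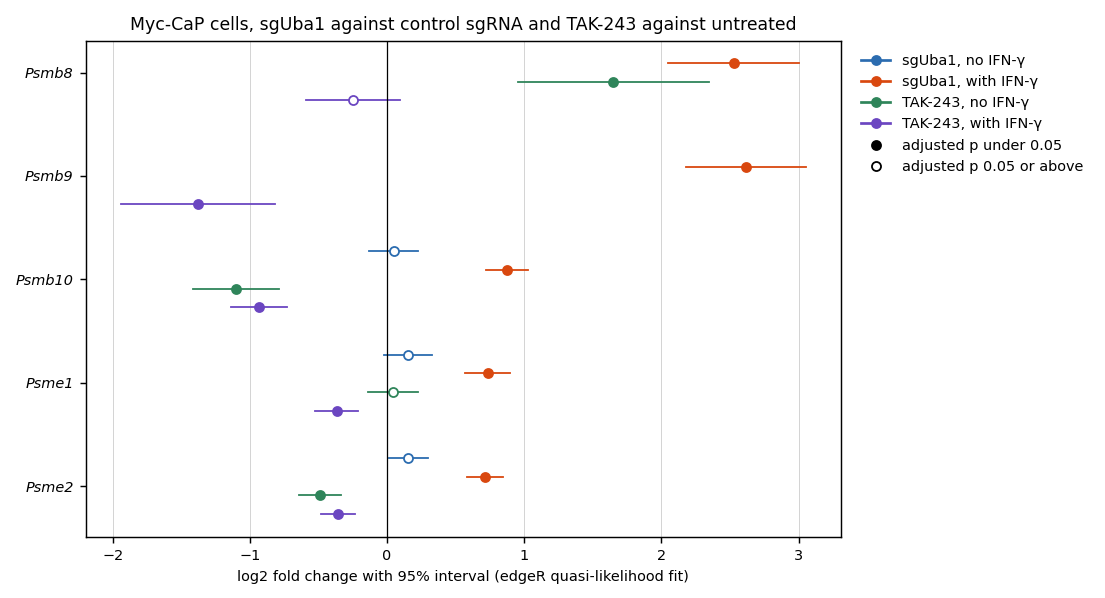
Log2 fold change of each gene with sgUba1 against control sgRNA and with TAK-243 against untreated cells, without and with IFN-γ, with 95% intervals from the edgeR fit; filled points passed adjusted p under 0.05. With IFN-γ the sgUba1 values run from 0.71 to 2.62 and the TAK-243 values from -1.38 to -0.25. Psmb8 and Psmb9 for sgUba1 and Psmb9 for TAK-243 without IFN-γ are left out because a group held at most 2 counts. Because of the filter on low counts, Psmb9 with IFN-γ and Psmb8 for TAK-243 without IFN-γ are drawn but not counted as calls.

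Other proteasome genes were counted in TAK-243 cells too, with no test of the lists against each other. Without IFN-γ, 2 of 3 constitutive catalytic subunits, 8 of 11 other 20S subunits and 14 of 18 subunits of the 19S regulator were higher, and 0, 1 and 3 were lower. With IFN-γ, Psmb6 (0.35) and Psmb7 (0.51) were higher and Psmb5 (-0.30) was lower on the log2 scale, and 10 of 18 subunits of the 19S regulator were higher and 3 lower. The list medians with IFN-γ were 0.35 for the constitutive catalytic subunits and 0.14 for the 19S regulator. They were -0.37 for the 5 members, Psmb9 included, and 0.02 for all genes tested. Of 5 proteasome assembly chaperones 1 was higher and 4 lower. Of the IFN-γ signaling list 7 of 10 were higher and 2 lower; Irf1 was higher by 0.86.

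The sgUba1 and TAK-243 effects were compared directly in a fit of all 16 cell libraries, also added after the data were seen. With IFN-γ the sgUba1 effect exceeded the TAK-243 effect by 2.79 ± 0.28 for Psmb8 (SE), 4.01 ± 0.39 for Psmb9, 1.82 ± 0.12 for Psmb10, 1.11 ± 0.11 for Psme1 and 1.09 ± 0.09 for Psme2 on the log2 scale. All 4 that passed the filter without IFN-γ libraries were called, with adjusted p of at most 4.2e-08 in edgeR, where 30.7% of all genes tested were higher. The Psmb9 difference was not called on log2(TPM + 0.1) (3.10, adjusted p = 0.0726 in limma). Without IFN-γ the difference was called for Psmb10 (1.17 ± 0.17) and Psme2 (0.67 ± 0.10), with adjusted p of 4.8e-06 and 9.0e-06 in edgeR, where 30.2% were higher; Psmb8 (adjusted p = 0.0852) and Psme1 (0.411) did not pass in edgeR. Psmb8 passed without control sgRNA replicate 2, the one control library with counts (adjusted p = 0.0291 in edgeR). Psmb9, at 0 counts in 4 of these 8 libraries, had an adjusted p of 0.0052 in edgeR, which rested on untreated replicate 1, the one untreated library with counts: without it the value was 1.75 and not called, nor was it on the TPM scales (adjusted p = 0.559 or 0.247 in limma). The effects are each relative to their own controls, and these differed, as described, so a line, a compound and an experiment cannot be told apart in these differences.

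Tumors held more Psmb8 and Psmb9 than unstimulated cells of the same kind, while Psmb10 did not pass the test. In control sgRNA tumors Psmb8 was 9.72, 7.02 and 8.82 CPM, against 2 counts in control sgRNA cells, a ratio of 214 with a counting interval of 58.8 to 1776. Psmb9 was 1.98, 1.49 and 1.72 CPM in these tumors against 0 counts in the cells, at least 14.3-fold higher. Psmb10 was 9.56, 11.9 and 9.71 CPM, around the 10.9 and 11.3 CPM of the cells. Psme1 was 33.4, 44.8 and 36.9 CPM and Psme2 47.5, 47.6 and 53.1 CPM, each above both cell libraries. Psme1 (log2 fold change 0.60 ± 0.15, SE, adjusted p = 0.0118 in edgeR) and Psme2 (0.41 ± 0.10, adjusted p = 0.0128) were called higher, and Psmb10 differed by -0.08 (95% interval -0.42 to 0.26, adjusted p = 0.675 in edgeR). Psmb8 and Psmb9 passed the filter only through tumor or IFN-γ libraries, so calls are counted over the other 3, of which 2 were higher, where 30.4% of all genes tested were higher and 25.8% lower. Without control sgRNA cell replicate 1 or 2, neither Psme1 (adjusted p = 0.104 or 0.0568 in edgeR) nor Psme2 (0.0618 or 0.103) was called, and with no filter on low counts Psme2 was not (0.31, adjusted p = 0.0591).

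Vehicle tumors were compared with untreated cells. Psmb8 ranged from 7.65 to 12.2 CPM with a median of 9.89 CPM, and Psmb9 from 1.11 to 4.93 CPM with a median of 1.57 CPM. All 6 tumors lay above both untreated libraries for both genes. Psmb10 ranged from 10.7 to 14.7 CPM (median 11.4), Psme1 from 36.0 to 43.2 CPM (median 38.6) and Psme2 from 48.7 to 56.0 CPM (median 53.9). The log2 differences were 3.57 ± 0.32 for Psmb8 (SE) and 3.28 ± 0.97 for Psmb9, which had 14 and 9 and 6 and 0 counts in untreated cells and passed the filter only through tumor or IFN-γ libraries. The Psmb9 value ran from 2.28 without untreated replicate 2 to 8.82 without untreated replicate 1, when no untreated count was left. Of the other 3 members 1 was higher, Psme1 (0.36 ± 0.09, adjusted p = 0.0051 in edgeR), where 32.1% of all genes tested were higher and 26.8% lower. Psmb10 (0.11, adjusted p = 0.519) and Psme2 (0.17, adjusted p = 0.0821) did not pass in edgeR. Without untreated replicate 2 the Psmb9 adjusted p was 0.108 in edgeR, and without replicate 1 that of Psme1 was 0.0631.

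Against IFN-γ cells the tumors depended on which cells they were set beside. Control sgRNA tumors had more Psmb8 than control sgRNA cells with IFN-γ (log2 fold change 2.78 ± 0.34, SE, adjusted p = 0.00057 in edgeR) and less Psmb10 (-0.87 ± 0.14, adjusted p = 0.0019), so that 1 was higher and 1 lower, where 36.1% and 27.1% of all genes tested were. Psmb9 (0.75), Psme1 (0.37) and Psme2 (-0.10) did not pass, with adjusted p of 0.0623, 0.0590 and 0.423 in edgeR; Psme1 passed without tumor replicate 1 (adjusted p = 0.0230 in edgeR), and Psmb9 passed with limma-voom (0.76, adjusted p = 0.0240). On log2(TPM + 1) or log2(TPM + 0.1), Psmb10 was not called (adjusted p = 0.0550 or 0.0501 in limma), while Psmb9 (0.0206 or 0.0313), Psme1 (0.0133 or 0.0115) and Psme2, which turned to 0.31, were called higher. Vehicle tumors had less Psmb9 (-1.97 ± 0.52), Psmb10 (-1.59 ± 0.13), Psme1 (-0.74 ± 0.08) and Psme2 (-0.89 ± 0.07) than IFN-γ cells, with adjusted p of at most 0.0068 in edgeR, 4 lower and 0 higher where 28.7% and 36.6% were. Psmb8 differed by -0.19 (95% interval -0.67 to 0.30, adjusted p = 0.466 in edgeR). With log2(TPM + 0.1) the Psmb9 difference missed the threshold (adjusted p = 0.0572 in limma).

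Tumors hold other cells than the cancer line, and experiment and tissue are confounded in these comparisons. Ptprc, at 0 in control sgRNA and untreated cells, was 11.1 to 14.3 CPM in control sgRNA tumors and 6.77 to 11.0 CPM in vehicle tumors. The summed level of 14 myeloid markers was 267 to 495 CPM and 232 to 310 CPM in these tumors, against 14.5 to 19.1 CPM in the cells, where 6 to 9 of the 14 were at 0. The part of these cells in the member differences was not tested. In bulk samples, fewer cells of a type and less RNA per cell cannot be told apart. Ifng RNA was at 0 in all 16 cell libraries and at most 6 counts in a tumor. In the edgeR fits the median of all genes lay at 0.17 to 0.25, and scaling by TPM without TMM moved it up by 0.12 to 0.48 more; on that scale Psmb10 and Psme2 passed as higher in vehicle tumors than in untreated cells, and Psmb10 in control sgRNA tumors turned to 0.26 or 0.28. The 3 constitutive catalytic subunits and all 18 subunits of the 19S regulator were lower in tumors in each of the 4 comparisons. Of all genes tested, 25.8% to 28.7% were lower.

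The balance of inducible to constitutive subunit, as the TPM ratio of each pair, brings these together. Psmb8 stood at 0.0483% of Psmb5 in control sgRNA cells and 1.42% with IFN-γ, at 0.715% and 7.69% in sgUba1 cells, at 0.863% and 10.1% in untreated cells and at 3.06% and 9.17% in TAK-243 cells (means of 2 libraries). In tumors the group means ran from 7.71% to 22.7%. Psmb9 was 0% of Psmb6 in control sgRNA cells and 1.10% with IFN-γ, 5.78% in sgUba1 cells with IFN-γ and 7.15% in IFN-γ cells without an sgRNA, against 2.13% to 9.31% in tumors. Psmb10 was 4.88% of Psmb7 in control sgRNA cells, 16.1% in sgUba1 cells with IFN-γ and 16.8% in IFN-γ cells without an sgRNA, and TAK-243 cells had the lowest mean both without (1.71%) and with IFN-γ (6.20%). The ratios also move with the constitutive subunits. In Myc-CaP tumors the medians of Psmb5, Psmb6 and Psmb7 were 84.9, 105 and 149 TPM, against 108, 138 and 247 TPM in unstimulated cells. In B16-BL6 tumors they were 157, 169 and 222 TPM. Among tumors, the Psmb9 ratio in the 4 OE tumors (1.17% to 3.59%) lay below all 3 empty vector tumors (6.16% to 8.97%), but as a CPM ratio the groups overlapped, OE replicate 3 being at 7.09% and empty vector replicate 1 at 5.71%. Each ratio was compared in the 4 tumor experiments by a two-sided exact permutation test, 12 tests in all, and none passed after adjustment (lowest adjusted p = 0.229 in these exact tests). The smallest p that 3 against 4 tumors can give is 0.0286. The lowest was p = 0.0476 in the exact test for Psmb10 against Psmb7 with TAK-243, where means were 15.1% ± 3.31 (SD, n = 5) and 11.8% ± 1.41 (SD, n = 6).

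**Figure D4:**
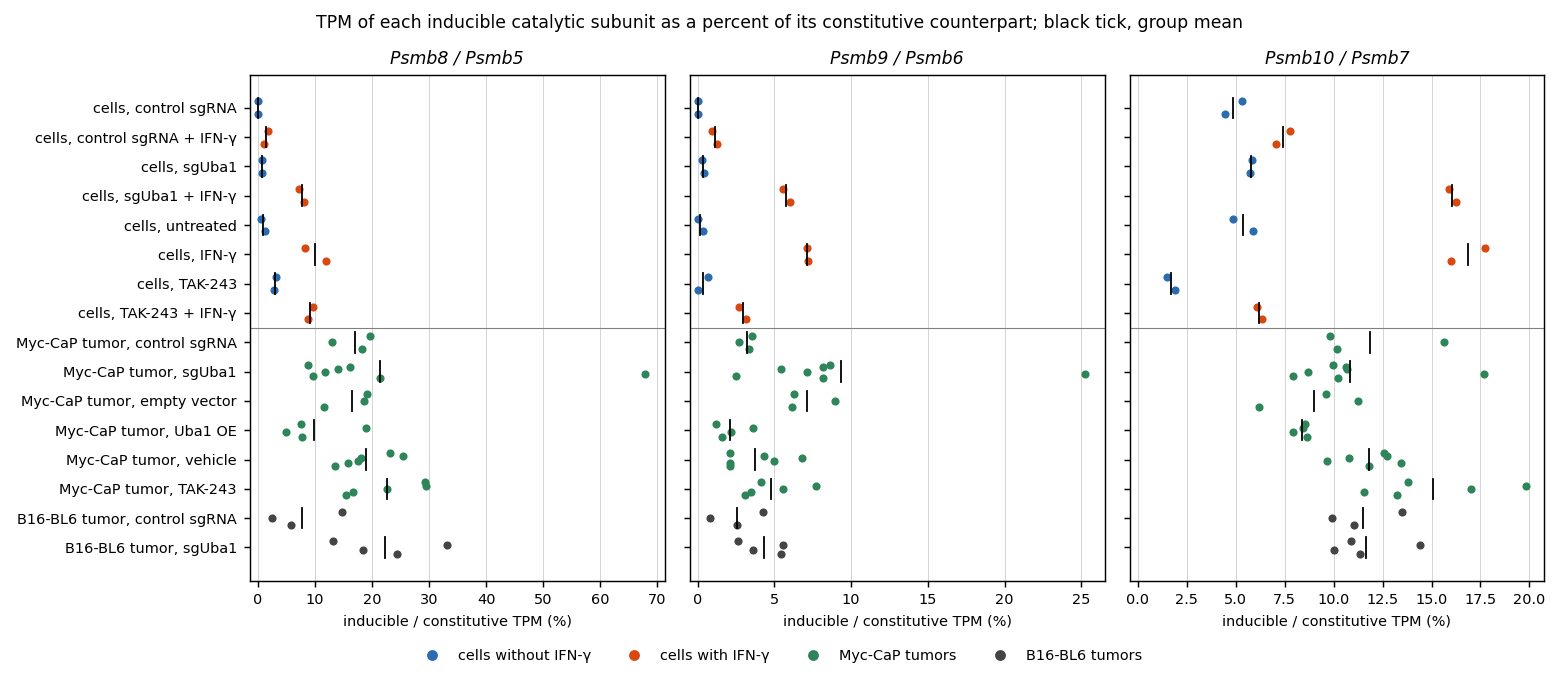
Ratio of each inducible catalytic subunit to the constitutive subunit it replaces, as percent of its TPM on the horizontal axis, in every library; each point is 1 library, rows are groups and black ticks are group means. Group means of the Psmb8 to Psmb5 ratio run from 7.71% to 22.7% in tumors and from 1.42% to 10.1% in IFN-γ cells, and those of the Psmb10 to Psmb7 ratio from 8.38% to 15.1% in tumors and from 6.20% to 16.8% in IFN-γ cells.

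In the tumor experiments no member passed the test. In B16-BL6, Psmb8 was 7.35, 2.76 and 18.3 CPM in control tumors and 24.1, 19.5, 33.6 and 14.9 CPM in sgUba1 tumors. Of the 4 sgUba1 tumors 3 lay above every control, and the controls themselves spanned a wide range. Psme2 was 35.1, 33.5 and 41.5 against 50.9, 43.4, 56.5 and 39.97 CPM, with 3 of 4 above every control. The log2 fold changes were 1.30 ± 0.50 for Psmb8 (SE, 95% interval 0.18 to 2.42, adjusted p = 0.254 in edgeR), 0.38 ± 0.13 for Psme2 (0.10 to 0.66, adjusted p = 0.196) and 0.81 ± 0.41 for Psmb9 (-0.10 to 1.73, adjusted p = 0.359). Psmb10 (-0.14) and Psme1 (0.17) were nearer 0. Without control replicate 2 Psmb8 moved to 0.85 and Psmb9 to 0.45, and without control replicate 4 they moved to 2.20 and 1.55. This is 0 of 5, where 0.724% of all genes tested were called in either direction. At an unadjusted p under 0.05 there were 2 of 5, and the share of all genes at that threshold was not counted. DESeq2 and limma-voom called 0 of 5 in this and in the other 3 tumor experiments. Ptprc was 4.28 to 8.96 CPM in controls and 9.77 to 11.1 CPM in sgUba1 tumors, and the 14 myeloid markers summed to 140 to 228 and 239 to 280 CPM. The 14 T and NK cell markers summed to 7.04 to 9.50 CPM even in cultured control sgRNA Myc-CaP cells, where Ptprc was at 0. The sum therefore does not stand for T and NK cells alone. In B16-BL6 control and sgUba1 tumors it was 8.39 to 10.3 and 10.3 to 12.7 CPM. The part of leukocytes in the member values was not tested.

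In Myc-CaP, Psmb9 was 1.98, 1.49 and 1.72 CPM in control tumors, and from 2.10 to 15.1 CPM with a median of 3.47 CPM in the 7 tumors labelled sgUba1. All 7 lay above every control, replicate 3 being the highest. Psmb8 ranged from 5.995 to 32.8 CPM with a median of 9.64 CPM, around the 9.72, 7.02 and 8.82 CPM of controls. Psme2 ranged from 45.1 to 70.5 CPM with a median of 66.1 CPM, against 47.5, 47.6 and 53.1 CPM. The log2 fold changes were 1.50 ± 0.62 for Psmb9 (SE, 95% interval 0.13 to 2.87, adjusted p = 0.177 in edgeR), 0.44 ± 0.52 for Psmb8 (adjusted p = 0.647) and 0.30 ± 0.15 for Psme2 (adjusted p = 0.256). Psme1 was at 0.19 and Psmb10 at 0.07. This is 0 of 5, where 3.04% of all genes tested were called. Of the 5, 1 had an unadjusted p under 0.05, a threshold at which the share of all genes was not counted. Without replicate 3 the Psmb9 value was 0.92 and the Psmb8 value -0.07. Without the 4 tumors labelled sgUba1 whose Uba1 lay above every control, Psmb9 was 2.05 (adjusted p = 0.197 in edgeR), Psmb8 0.94, Psmb10 0.24, Psme1 0.11 and Psme2 0.09, and again 0 of 5 passed. Ptprc was 11.1 to 14.3 CPM in controls and 15.1 to 35.8 CPM in tumors labelled sgUba1, and was itself called (1.06, adjusted p = 0.0459 in edgeR). T and NK cell markers summed to 7.04 to 9.50 CPM in cultured control sgRNA cells, which lack Ptprc. In these tumors they summed to 11.0 to 14.3 and 14.2 to 32.3 CPM, and myeloid markers to 267 to 495 and 471 to 756 CPM. Their part in the member values was not tested.

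The sgUba1 effect was also set beside that of the other tumor model. The difference, Myc-CaP minus B16-BL6, ran from -0.85 for Psmb8 to 0.71 for Psmb9, with 95% intervals of -2.55 to 0.85 and -1.03 to 2.44, and 0 of 5 passed in edgeR (adjusted p from 0.618 to 0.968), where 1.52% of all genes tested did; 0 of 5 had an unadjusted p under 0.05. With only the 3 tumors labelled sgUba1 that had low Uba1, 0 of 5 passed.

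In OE tumors the values of Psmb8 and Psmb9 lay on the low side. Psmb9 was 2.02, 4.86 and 4.71 CPM with empty vector and 1.36, 1.06, 2.44 and 0.960 CPM with OE. Psmb8 was 7.21, 12.6 and 10.4 CPM against 5.26, 3.37, 9.93 and 4.16 CPM. Of the 4 OE tumors 3 lay below every empty vector tumor for each of these genes. The log2 fold changes were -1.38 ± 0.42 for Psmb9 (SE, 95% interval -2.35 to -0.42, adjusted p = 0.167 in edgeR) and -0.82 ± 0.38 for Psmb8 (-1.68 to 0.03, adjusted p = 0.288). Psmb10 (-0.04), Psme1 (-0.15) and Psme2 (-0.08) were near 0, with 48.4 to 50.1 CPM of Psme2 in OE tumors and 47.1 to 56.5 CPM in empty vector tumors. This is 0 of 5, where 0.0269% of all genes tested were called. Of the 5, 1 had an unadjusted p under 0.05, a threshold at which the share of all genes was not counted. Ptprc was 14.2 to 22.1 CPM with empty vector and 7.02 to 15.8 CPM with OE. T and NK cell markers summed to 20.2 to 24.8 and 7.02 to 12.9 CPM, against 7.04 to 9.50 CPM in cultured control sgRNA cells. Myeloid markers summed to 389 to 471 and 162 to 519 CPM. Their part was not tested.

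TAK-243 tumors overlapped vehicle tumors for every member. Psmb8 was 6.93, 7.57, 12.2, 10.3 and 10.5 CPM and Psmb9 1.23, 1.57, 1.80, 3.44 and 1.93 CPM. Vehicle tumors spanned 7.65 to 12.2 and 1.11 to 4.93 CPM for these genes, with only the lower Psmb8 values of TAK-243 replicates 1 and 2 and the 12.2 CPM of replicate 3 past that range. Psmb10 was 12.2, 11.0, 16.9, 14.1 and 12.3 CPM, of which replicate 3 lay above every vehicle tumor. The log2 fold changes were -0.05 for Psmb8 (95% interval -0.43 to 0.34), -0.09 for Psmb9 (-0.95 to 0.76), 0.16 for Psmb10 (-0.12 to 0.44), 0.04 for Psme1 (-0.10 to 0.19) and -0.02 for Psme2 (-0.15 to 0.11), with adjusted p from 0.588 to 0.930 in edgeR. This is 0 of 5, where 0.145% of all genes tested were called, and 0 of 5 had an unadjusted p under 0.05. Myeloid markers summed to 232 to 310 CPM in vehicle and 245 to 528 CPM in TAK-243 tumors. The labels do not tie tumors to mice, and tumors from both flanks may share one, so p-values in the tumor experiments may be too small.

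**Figure D5:**
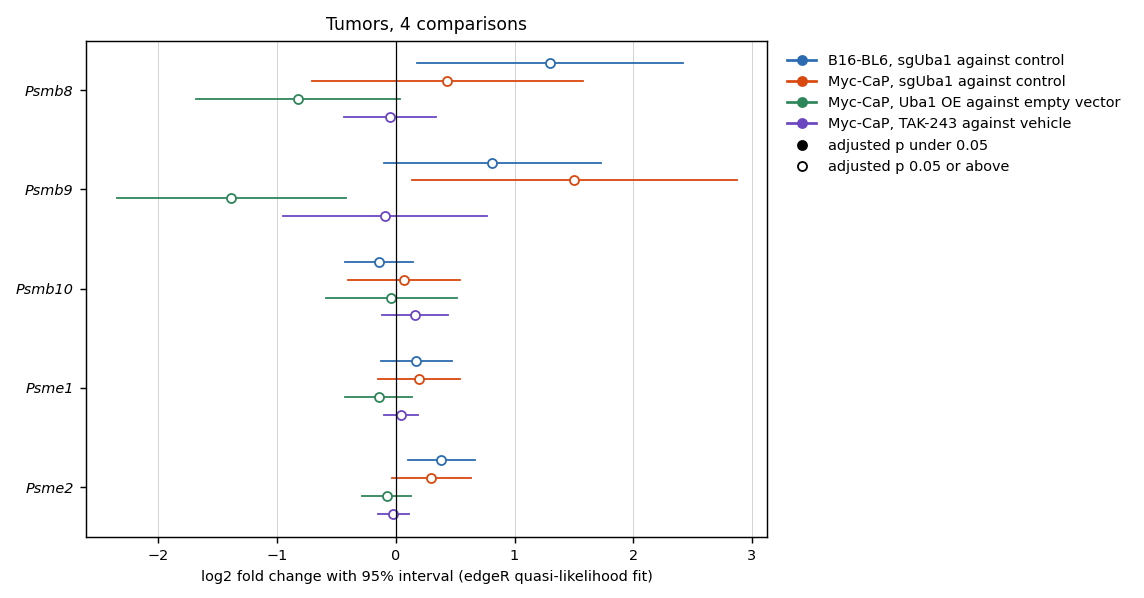
Log2 fold change of each gene in the 4 tumor experiments, with 95% intervals from the edgeR fit; open points did not pass adjusted p under 0.05. All 20 points are open, and the widest intervals are those of Psmb8 and Psmb9, such as 0.13 to 2.87 for Psmb9 in tumors labelled sgUba1.

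Ordered by mean CPM over the 16 groups, neighbors mostly overlapped. For Psmb8, 10 of 15 neighboring pairs overlapped in range, for Psmb9 and Psmb10 13 of 15, for Psme1 14 of 15 and for Psme2 11 of 15. Psmb8 was highest in B16-BL6 sgUba1 tumors (mean 23.0 CPM), which overlapped the next group, and lowest in control sgRNA cells. Psme2 reached its highest means in IFN-γ cells (100.2 CPM) and sgUba1 IFN-γ cells (90.8 CPM), whose ranges did not overlap, above all tumor groups.

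The genes most like the members in pattern were chosen by Pearson's r with the mean log2 CPM of the 5 members, among genes with a mean log2 CPM of at least 1. Over the 16 cell libraries they were the interferon-inducible GTPase Igtp (r = 0.98), Tap1 (0.97), Irgm1 (0.96), Tap2 (0.96) and Tgtp1 (0.95). Over the 35 tumors they were Igtp (r = 0.90), Gbp2 (0.90), Ifi47 (0.89), Tap1 (0.88) and Irgm2 (0.86). Libraries of a group share treatment and experiment, and r is given as a description. Among the members, Psmb8 and Psmb9 varied together over the tumors (r = 0.77) and in cells (r = 0.87), while Psmb10 and Psme2 had r = 0.94 over cells and -0.34 over tumors, where the 2 models differ: over the 28 Myc-CaP tumors alone it was 0.18.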

How the data were processed

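Bulk RNA-seq of 51 libraries was analysed from gene tables. The authors deposited expected counts, which need not be whole, and TPM; the submitters' processing notes name kallisto and mm10 without versions, and the annotation is not given in the sources used here. The labels describe poly-A selection and the methods removal of ribosomal RNA, which can shift levels between genes. The design assumed counts, so the expected counts were rounded. The members and lists were chosen with earlier results of these data known.

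Groups came from the labels. Each experiment was fitted alone, cells with all 8 libraries together, in R 4.3.3 with edgeR 4.0.16 (filterByExpr, TMM, quasi-likelihood test, Benjamini-Hochberg over all genes tested, threshold 0.05). Intervals are 95%. CPM use 1 set of TMM factors for all libraries, and correlations a prior count of 2. The step was tested on simulated data. Alternatives were edgeR with RLE scaling, DESeq2 1.42.0, limma 3.58.1 on voom weights or on log2 TPM, other filters, a replicate block and leaving out each library. The named genes are the 5 members, genes of the fixed lists, Uba1, and the 5 genes most like the members in cells and in tumors. Positions come from GENCODE M21 and promoters from RefSeq.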

Additional observations from a re-analysis of the deposited data

Results flagged for a closer look

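Each of the 5 genes was tested in the 5 groups of 4 to 7 libraries, and in 3 of these 25 combinations 1 library stood far from the others. Chance does this in about 1 of 20, but the 3 are the same library read in 3 genes and are not separate events. It was Myc-CaP tumor replicate 3 of the tumors labelled sgUba1, with 32.8 CPM of Psmb8, 15.1 CPM of Psmb9 and 17.8 CPM of Psmb10.

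By the edgeR interaction test, the IFN-γ effect differed between sgUba1 and control sgRNA cells for Psmb10 (0.83), Psme1 (0.58) and Psme2 (0.56) on the log2 scale. Of all genes tested, 0.663% were higher there. Between TAK-243 and untreated cells it differed for Psmb8 (-1.90), where 2.01% were lower, but Psmb8 did not pass the filter through untreated cells. None of these 4 values passed on the TPM scales. The effect also differed between untreated and control sgRNA cells, with no Uba1 manipulation in either. This was so for Psmb10 (0.91), Psme1 (0.88) and Psme2 (0.55), where 1.88% of all genes tested were higher.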

How the results depend on the processing

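RLE scaling, DESeq2 and the unfiltered fit turned no direction. The larger changes in the number of members called are listed here. The counts are over all 5 and include Psmb9, and Psmb8 against tumors, in control sgRNA cells and in untreated cells, despite the filter. The IFN-γ effect in control sgRNA cells had 4 calls (3 beside Psmb9) and 2 (1 beside it) when only its 4 libraries were fitted. The IFN-γ by sgUba1 interaction had 3 calls, 0 with log2(TPM + 0.1), 1 with log2(TPM + 1), which was Psmb9 and none of the 3, and 0 to 3 with 1 library left out. The IFN-γ effect in TAK-243 cells had 5 calls (4 beside Psmb9), lost Psmb9 with log2(TPM + 1) and had 3 calls with log2(TPM + 0.1). TAK-243 against untreated with IFN-γ had 4 (3 beside Psmb9) and 2 on both TPM scales. The IFN-γ by TAK-243 interaction, with 1 call, had 2 with limma-voom, with no filter and with the replicate block, 0 on both TPM scales, and 0 to 2 with 1 library left out. Control sgRNA tumors against IFN-γ cells, with 2 calls, had 2 of the 3 members tested with at least 10 counts in every library and 4 on both TPM scales. Against unstimulated cells these tumors had 4 calls and 2 to 4 with 1 library left out, and Psme2 was lost in the unfiltered fit. Vehicle tumors against untreated cells, with 3 calls, had 2 of 3 under the stricter filter and 5 on both TPM scales. The added comparison of untreated and control sgRNA cells, with 3 calls, had 5 with log2(TPM + 1). The cause was not tested. TPM moved the median of all genes by over 0.1 in 10 comparisons.

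The following directions turned. With log2(TPM + 1) and log2(TPM + 0.1), TAK-243 tumors had 0.012 and 0.013 for Psmb8, 0.26 and 0.34 for Psmb9 (0.018 with limma-voom) and 0.057 and 0.057 for Psme2; TAK-243 without IFN-γ had 0.25 and 0.52 for Psmb9; the difference between models had -0.036 and -0.035 for Psme1 (-0.051 with only replicates 1 to 3 labelled sgUba1). On the same scales control sgRNA tumors had 0.26 and 0.28 for Psmb10 against unstimulated cells (0.046 under the stricter filter) and 0.31 and 0.31 for Psme2 against IFN-γ cells (0.0070 under the stricter filter), vehicle tumors had 0.26 and 0.28 for Psmb8 against IFN-γ cells, and untreated minus control sgRNA cells had 1.60 and 0.17 for Psmb8 and 1.79 and 1.29 for Psmb9 (0.32 with limma-voom). With log2(TPM + 1) alone, the IFN-γ by sgUba1 interaction was 1.24 for Psmb8 and 1.28 for Psmb9. The sgUba1 minus TAK-243 difference without IFN-γ was -0.41 for Psmb8. The Psmb8 to Psmb5 ratio of Myc-CaP tumors labelled sgUba1 was 0.020 by CPM.

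With 1 library left out, values that changed sign ranged as follows on the log2 scale. TAK-243 tumors had -0.17 to 0.050 for Psmb8, -0.38 to 0.30 for Psmb9 and -0.0041 to 0.062 for Psme1, and OE tumors -0.25 to 0.17 for Psmb10 and -0.31 to 0.12 for its ratio. Tumors labelled sgUba1 had -0.074 to 0.55 for Psmb8, -0.080 to 0.20 for Psmb10, -0.36 to 0.13 for the Psmb8 ratio and -0.27 to 0.072 for the Psmb10 ratio, and B16-BL6 -0.083 to 0.15 for the last. The difference between models was -0.043 to 1.07 for Psmb9, -0.082 to 0.20 for Psme1 and -0.17 to 0.024 for Psme2. In cells, TAK-243 without IFN-γ gave -4.63 to 3.22 for Psmb9 and -0.14 to 0.095 for Psme1, its interaction -4.61 to 3.25 for Psmb9, and untreated minus control sgRNA cells -3.25 to 3.03 for Psmb9. Vehicle tumors gave -0.0029 to 0.23 for Psmb10 against untreated and -0.40 to 0.012 for Psmb8 against IFN-γ cells.

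Groups share replicate numbers, but same-numbered samples did not deviate together in every pair (correlations from -0.14 to 0.24), so they share only a number. With the block the control sgRNA IFN-γ effect had Psme1 called as well, 4 members beside Psmb9 (Psmb8 among them) rather than 3, and no other count of members beside those above changed. A block could not be fitted across tumors and cells. The stricter filter left Psmb8 or Psmb9 untested where counts were low, and depth limits both genes in unstimulated cells, where a fold cannot be set beyond its counting interval.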
